A study of Homo sapiens with 9 samples.

Results

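A set of 9 complement genes was followed in EGI-1, a human cell line established from bile duct cancer (cholangiocarcinoma), after knockdown of FOSL1, the gene of the AP-1 subunit FRA-1. The 9 genes were taken as a named list and matched by Ensembl identifier among the 58381 genes of each count table, and all 9 were found. They are the classical pathway proteases C1R and C1S, the central component C3, the alternative pathway protease CFB, the soluble inhibitors CFI and SERPING1, and the membrane regulators CD46, CD55 and CD59. Cells carried a TET-inducible hairpin and fell into 3 groups of 3 libraries: FOSL1sh10 and FOSL1sh3, each with a hairpin against FOSL1, and GFPsh, the control hairpin. All 9 libraries, control libraries included, came from cells given doxycycline at 2 ug per ml for 4 days and harvested 24 h after seeding. The sources used here do not give whether each hairpin line was a clone or a pool, or whether replicates were separate cultures. The p-values therefore rest on a spread between libraries that may be technical.

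Complement is a cascade of plasma and membrane proteins that marks cells for removal or lyses them. Its classical, lectin and alternative routes meet at the cleavage of C3, and host cells hold it off with inhibitors that break down or block the convertases (CD46, CD55, CFI) or the membrane attack complex (CD59). Hepatocytes make most of the plasma proteins, and epithelial cells also make some of them locally, C3 among them.

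Libraries held 6893026 to 10604251 counts, and 12814 genes passed the expression filter. A gene with 0 counts in a library could have had up to 3, or 0.306 to 0.433 CPM (counts scaled by library size and TMM factor) depending on the library, by counting error only. FOSL1 averaged 64.6 ± 6.97 CPM with FOSL1sh10 and 62.5 ± 15.2 CPM with FOSL1sh3, against 247 ± 61.1 CPM in GFPsh (SD, n = 3 each). All 8 biliary epithelial markers listed, such as KRT7, KRT19 and EPCAM, passed the filter and summed to 10994 to 12961 CPM with FOSL1sh10, 12228 to 13589 CPM with FOSL1sh3 and 10946 to 11785 CPM in GFPsh. Most of each sum was KRT18 and KRT19, so the sums can hide changes of the others. By edgeR's quasi-likelihood test KRT7 was higher with FOSL1sh10 (log2 fold change 0.71, adjusted p = 0.00456) and with FOSL1sh3 (0.46, adjusted p = 0.0432). With FOSL1sh10 against FOSL1sh3, KRT19 was lower (-0.50) and EPCAM (0.49) and SOX9 (0.80) were higher. The shares of all genes called in these 3 comparisons were 5.28%, 10.9% and 12.7%. With library totals in place of TMM scaling, the median log2 fold change of all genes lay at 0.11 for FOSL1sh10 against GFPsh, -0.06 for FOSL1sh3 against GFPsh and 0.17 for FOSL1sh10 against FOSL1sh3. The share of calls that were higher was then 77.5%, 34.0% and 82.4%, against 59.3%, 48.0% and 54.9% with TMM.

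The 9 genes divided sharply by level. C3, CD59, CD55 and CD46 had over 100 counts in every library, SERPING1 had 3 to 27, and the other 4 had at most 12. The filter kept 5, namely C3, CD46, CD55, CD59 and SERPING1. SERPING1 had 3, 9 and 8 counts in GFPsh and passed through the hairpin libraries, so its presence among the tested genes depends on its being higher there. Per kilobase of exon, CD59 and C3 stood first in each group. With FOSL1sh10 they averaged 38.6 ± 1.55 and 37.7 ± 1.23 CPM per kilobase, and with FOSL1sh3 51.6 ± 7.73 and 48.8 ± 10.1 CPM per kilobase, differences within the spread of each group. In GFPsh CD59 averaged 52.6 ± 3.53 and C3 19.9 ± 0.511 CPM per kilobase, which did not overlap. CD55 followed at 12.6 ± 1.96 with FOSL1sh10, 8.29 ± 2.87 with FOSL1sh3 and 14.7 ± 1.21 CPM per kilobase in GFPsh. CD46 came next at 1.94 ± 0.555, 1.96 ± 0.203 and 2.60 ± 0.32 CPM per kilobase in the same groups (SD, n = 3). Since the library protocol reads transcripts near their 3' ends, dividing by exon length may misplace long genes in this order. The closeness of CD59 and C3 also depends on that division. Without it CD59 was at 385 to 417 and C3 at 303 to 322 CPM with FOSL1sh10, which did not overlap. With FOSL1sh3 they were at 446 to 602 and 317 to 484 CPM, which did.

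**Figure D1:**
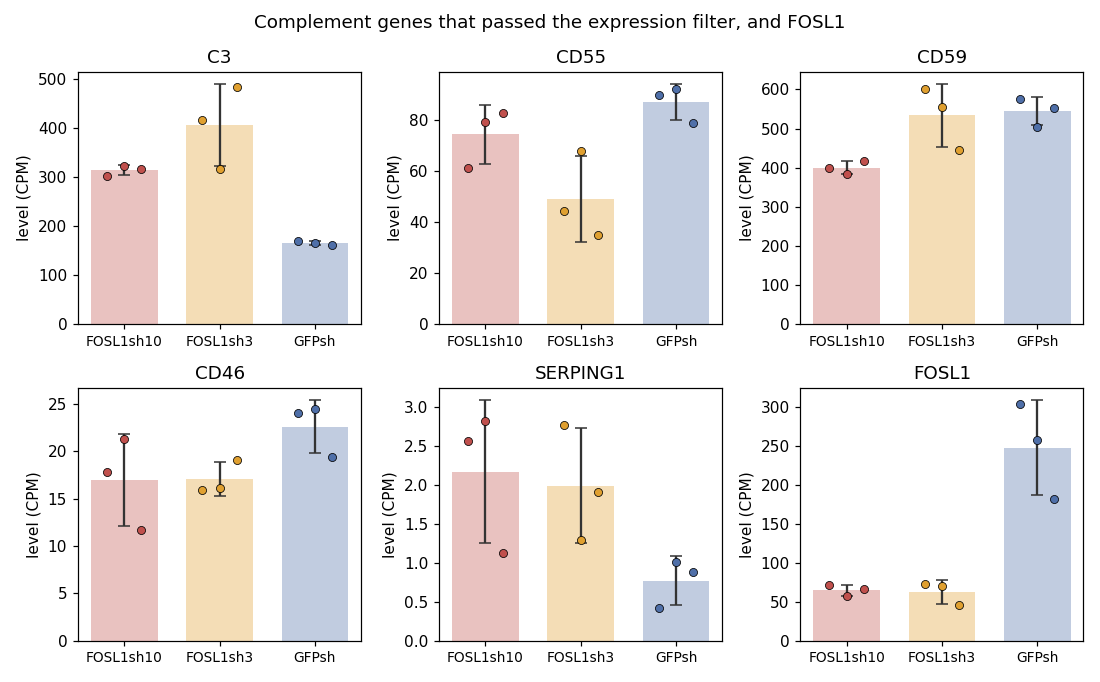
Levels in CPM (y axis, linear from 0) of the 5 complement genes that passed the expression filter and of FOSL1, by group; points are libraries, bars are means and error bars are SD (n = 3). Every hairpin library lies above every GFPsh library for C3 and for SERPING1, and every FOSL1sh3 library lies below every GFPsh library for CD55.

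C3 encodes the protein on which all complement routes converge, and its RNA was higher with both hairpins. The gene lies on chromosome 19 (6677704 to 6730562, minus strand, hg38), and no other gene of the annotation shares its exons. Its levels were 303, 322 and 317 CPM with FOSL1sh10, 417, 317 and 484 CPM with FOSL1sh3, and 169.5, 166 and 161 CPM in GFPsh. All 6 hairpin libraries were above all 3 controls, and the FOSL1sh3 libraries were the more spread. In bulk libraries a change in the number of cells making a gene and a change in RNA per cell cannot be told apart. The means were 314 ± 10.2 CPM with FOSL1sh10, 406 ± 83.9 CPM with FOSL1sh3 and 165 ± 4.26 CPM in GFPsh (SD, n = 3 each). C3 rose by 0.92 on the log2 scale with FOSL1sh10 (SE 0.150, adjusted p = 0.000841 by edgeR's quasi-likelihood test), 1.90-fold. It rose by 1.30 with FOSL1sh3 (SE 0.151, adjusted p = 5.93e-05), 2.45-fold. Between the hairpins it differed by -0.37 (FOSL1sh10 against FOSL1sh3, 95% interval -0.68 to -0.06, adjusted p = 0.108), which did not pass, and the libraries overlapped. That difference passed without FOSL1sh3 replicate 2, the lowest of its group, at -0.52 (adjusted p = 0.019).

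By a rule of likeness, the genes closest to C3 across the 9 libraries were DMAC1, PTPRF, SKI, LCN2 and NAT14, out of 9966 candidates. Likeness was the root mean square difference in log2 CPM after each gene was centred on its own mean. It was 0.134 for DMAC1 and 0.179 for NAT14, while C3 itself varied by 0.557 about its mean. LCN2, which encodes the iron-scavenging protein lipocalin 2, stood 0.85 higher with FOSL1sh10 and 1.39 higher with FOSL1sh3 on the log2 scale. For CD55 the closest genes were TCP1, UBA3, ASPH, DLAT and CYRIB, at 0.0946 for TCP1 to 0.135 for CYRIB, while CD55 varied by 0.451 about its mean. All 10 genes were chosen for that likeness, so their values describe the choice.

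CD55, or decay-accelerating factor, is anchored in the membrane and speeds the breakdown of C3 convertases. It was lower with FOSL1sh3 and not called with FOSL1sh10. It lies on chromosome 1 (207321376 to 207386804, plus strand, hg38) within the cluster of complement regulators. Its levels were 61.0, 78.9 and 82.7 CPM with FOSL1sh10, 44.1, 67.8 and 34.99 CPM with FOSL1sh3, and 89.8, 92.1 and 78.7 CPM in GFPsh. All FOSL1sh3 libraries lay below all controls, whereas 2 of the 3 FOSL1sh10 libraries lay above the lowest control. The means were 74.2 ± 11.6 CPM with FOSL1sh10, 49.0 ± 16.9 CPM with FOSL1sh3 and 86.8 ± 7.15 CPM in GFPsh (SD, n = 3 each). CD55 fell by 0.83 on the log2 scale with FOSL1sh3 (SE 0.194, adjusted p = 0.0116), to 56.3% of the control. With FOSL1sh10 the log2 fold change was -0.22 (95% interval -0.62 to 0.18, adjusted p = 0.579). The test between hairpins put CD55 higher with FOSL1sh10 than with FOSL1sh3, by 0.61 (SE 0.194, adjusted p = 0.047), although their libraries overlapped. That call ended without FOSL1sh10 replicate 2 or 3, FOSL1sh3 replicate 1 or 3, or any 1 GFPsh library (adjusted p 0.0534 to 0.173), and with only the groups compared in the fit (0.0745).

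CD59, or protectin, blocks the assembly of the membrane attack pore. It lies on chromosome 11 (33703010 to 33736491, minus strand, hg38). Its levels were 399, 385 and 417 CPM with FOSL1sh10, 602, 555 and 446 CPM with FOSL1sh3, and 577, 505 and 552 CPM in GFPsh. All FOSL1sh10 libraries lay below all libraries of the other groups, while FOSL1sh3 spanned the range of the controls. CD59 was at -0.44 with FOSL1sh10 on the log2 scale (95% interval -0.74 to -0.15, SE 0.140), and the adjusted p of 0.075 did not pass. It did pass with only the groups compared in the fit (0.024), with DESeq2 (0.03) and without FOSL1sh3 replicate 3 (0.0326). With FOSL1sh3 it was at -0.03 (95% interval -0.32 to 0.26, adjusted p = 0.924). FOSL1sh10 against FOSL1sh3 gave -0.42 (95% interval -0.71 to -0.12, adjusted p = 0.0591), which passed with DESeq2 (0.0283) and without FOSL1sh3 replicate 3 (0.0204).

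Promoter windows of the members were read from RefSeq (GRCh38.p14), each from 250 bases before to 50 after a start site. Of the 9 members 6 had an entry, with 11 windows in all; C3, C1S and SERPING1 had none. FOSL1 encodes an AP-1 subunit, so windows were searched on both strands for the AP-1 motif TGANTCA, which 7.71% of 35116 windows of that length hold. Among the members' 11 windows 1 held it, an inner start site among the 4 listed for CD59. That window (chr11:33722678-33722977, minus strand) held 3 matches, starting at -117, -23 and 4 relative to the start site, and is shown with them in capitals. Of all windows 0.0285% held 3 or more, a cut chosen after the matches were seen. The window of CD55 (chr1:207321428-207321727, plus strand) is shown beside it because CD55 was called, and it held no match.
CD59: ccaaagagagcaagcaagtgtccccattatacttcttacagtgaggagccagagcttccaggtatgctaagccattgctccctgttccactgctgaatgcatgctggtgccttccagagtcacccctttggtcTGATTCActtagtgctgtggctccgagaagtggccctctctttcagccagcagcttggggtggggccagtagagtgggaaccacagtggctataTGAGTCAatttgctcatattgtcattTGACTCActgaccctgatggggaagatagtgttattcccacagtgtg
CD55: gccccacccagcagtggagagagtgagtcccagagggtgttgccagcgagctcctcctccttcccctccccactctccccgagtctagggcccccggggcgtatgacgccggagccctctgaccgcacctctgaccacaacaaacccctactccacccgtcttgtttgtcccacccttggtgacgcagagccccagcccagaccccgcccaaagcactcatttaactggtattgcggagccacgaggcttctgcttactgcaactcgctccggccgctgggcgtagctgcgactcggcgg
CD55 also lacked the other motifs searched: the cyclic AMP response element TGACGTCA (1.85% of windows), the C/EBP motif TTGCNNAA (10.5%), the STAT motif TTCNNNGAA (7.66%) and the kappaB motif (11.3%). CFI and CD46 lacked them as well. CFB held a STAT and a kappaB match, C1R held C/EBP and STAT matches, and the other CD59 windows held STAT or C/EBP matches. The files do not say which start site the counted transcripts used, and a match of letters is a description only.

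CD46, or membrane cofactor protein, helps factor I to cleave C3b and C4b on the cell surface. It lies on chromosome 1 (207752057 to 207795513, plus strand, hg38), in the same cluster as CD55. Its levels were 17.8, 21.3 and 11.7 CPM with FOSL1sh10, 15.9, 16.2 and 19.1 CPM with FOSL1sh3, and 24.0, 24.4 and 19.4 CPM in GFPsh. The FOSL1sh3 libraries lay below the controls by a narrow margin, and FOSL1sh10 overlapped them. The log2 fold changes were -0.42 with FOSL1sh10 (95% interval -0.85 to 0.01, adjusted p = 0.277) and -0.41 with FOSL1sh3 (95% interval -0.84 to 0.03, adjusted p = 0.217), and neither passed.

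SERPING1 encodes C1 inhibitor, the serpin that inactivates the C1r and C1s proteases. It lies on chromosome 11 (57597387 to 57614853, plus strand, hg38). It had 18, 25 and 11 counts with FOSL1sh10, 27, 9 and 15 with FOSL1sh3, and 3, 9 and 8 in GFPsh. Once scaled, all 6 hairpin libraries were above the 3 controls, by as little as 1.12 against 1.01 CPM. The log2 fold changes were 1.43 with FOSL1sh10 (SE 0.505, adjusted p = 0.113) and 1.35 with FOSL1sh3 (SE 0.508, adjusted p = 0.0939). Neither passed, and their 95% intervals ran from 0.37 to 2.49 and from 0.29 to 2.42.

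**Figure D2:**
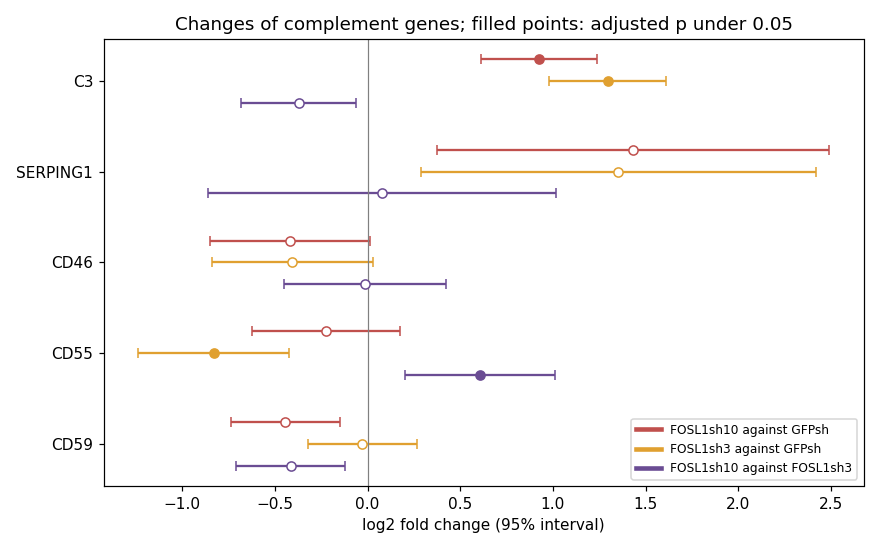
Log2 fold changes (x axis) with 95% intervals for the 5 complement genes tested, in 3 comparisons marked by colour; filled points passed an adjusted p under 0.05. C3 is filled and to the right of 0 against GFPsh with both hairpins (0.92 and 1.30), and CD55 is filled with FOSL1sh3 (-0.83) and between the hairpins (0.61).

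Counted together, 1 of the 5 tested members was called higher and none lower with FOSL1sh10 (C3), against 3.13% and 2.15% of all genes tested, or 5.28% in either direction. C3 and SERPING1 were higher and CD59 lower without overlap of the libraries, which held for 14.3% and 13% of all genes, 27.3% in all. SERPING1 passed the filter through its hairpin libraries. Its place on the higher side, here and with FOSL1sh3, was thus partly fixed by the filter and is no support. The 5 tested members and their medians below include it. CD59 made 1 lower under the alternatives named above, and unadjusted p-values under 0.05 were reached by C3, CD59 and SERPING1. The share of all genes under that unadjusted cut was not taken, so these p-values have no background here. With FOSL1sh3, 1 was called higher (C3) and 1 lower (CD55), against 5.21% and 5.65% of all genes, or 10.9% in either direction. C3 and SERPING1 were higher and CD46 and CD55 lower without overlap, as were 14.7% and 14.5% of all genes, 29.2% in all. Between the hairpins 1 was called higher (CD55) and none lower, against 7% and 5.74% of all genes, or 12.7% in either direction. CD59 alone of the 5 did not overlap there, on the lower side, as for 14.8% of all genes, with 15.9% on the higher side and 30.7% in all. The unadjusted p was under 0.05 there for C3, CD55 and CD59, again with no all-gene share to set beside it. The median log2 fold change of the 5 tested members was -0.22, -0.03 and -0.01 in these comparisons, and that of all genes tested was 0.00, 0.01 and 0.00. Both hairpin comparisons share the GFPsh libraries, and the members were chosen with earlier results of these data known.

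Set against the membrane regulators within a library, a ratio that no scaling touches, C3 was higher in every hairpin library. For each CD55 count there were 4.96, 4.08 and 3.83 C3 counts with FOSL1sh10, 9.44, 4.68 and 13.8 with FOSL1sh3, and 1.89, 1.80 and 2.05 in GFPsh. For each CD59 count there were 0.785 ± 0.0455 C3 counts with FOSL1sh10, 0.784 ± 0.269 with FOSL1sh3 and 0.305 ± 0.0206 in GFPsh (SD, n = 3 each). For each CD46 count there were 19.7 ± 6.41, 23.7 ± 3.57 and 7.38 ± 0.806 C3 counts in the same groups. None of the 3 ratios overlapped between hairpin and control libraries. That follows from the levels of C3 and the regulators given above, lower CD55 with FOSL1sh3 included, and adds no separate support. The ratios were chosen after the values were seen and were not tested.

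**Figure D3:**
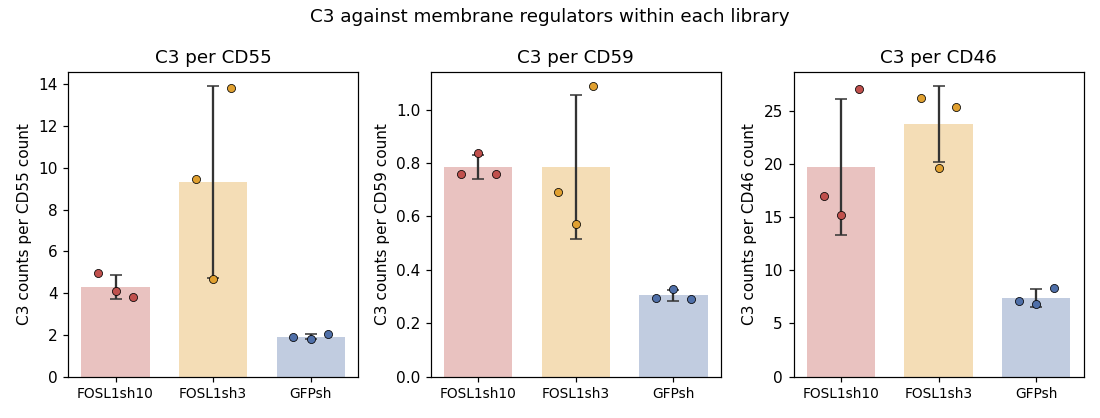
C3 counts per count of CD55, CD59 and CD46 (y axes, linear from 0) in each library; points are libraries, bars are means and error bars are SD (n = 3). The FOSL1sh10 and FOSL1sh3 points lie above all GFPsh points in each panel, and FOSL1sh3 reaches 13.8 C3 counts per CD55 count.

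The proteases and factor I were at or near the detection limit. C1R, which activates C1S in the C1 complex, had 10, 10 and 8 counts summed over the 3 libraries of FOSL1sh10, FOSL1sh3 and GFPsh. C1S, which cleaves C4 and C2, had 4, 1 and 2. CFI, which with its cofactors degrades C3b, had 12, 10 and 20. These 3 genes failed the filter, and in the fit without it, over 27513 genes, none passed in any of the 3 comparisons (adjusted p 0.634 to 1). CFB, which forms the alternative pathway C3 convertase with C3b, had 1, 0 and 2 counts, but these may leave out much of its RNA. Of the last 500 bases of its principal transcript 92.8% are shared with a second annotated gene (ENSG00000244255) that reads through from C2 into CFB on the same strand, and that gene had 0 counts in every library. Over the exons of all its annotated transcripts, 38.8% of the last 500 bases are shared. Per the file headers the counter was run without the option that keeps reads overlapping several genes, and by default such reads are dropped. How many CFB reads were dropped was not tested. CFI shared 72.3% of its principal transcript and 16.6% of that transcript's last 500 bases with another annotated gene (ENSG00000285330), also at 0 counts. Over the exons of all its annotated transcripts, 0% of the last 500 bases are shared. Part of its reads may be missing too. C1R shared 25.3% of its transcript with C1RL, and C1S, C3, SERPING1, CD46, CD55 and CD59 shared none of the last 500 bases.

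**Figure D4:**
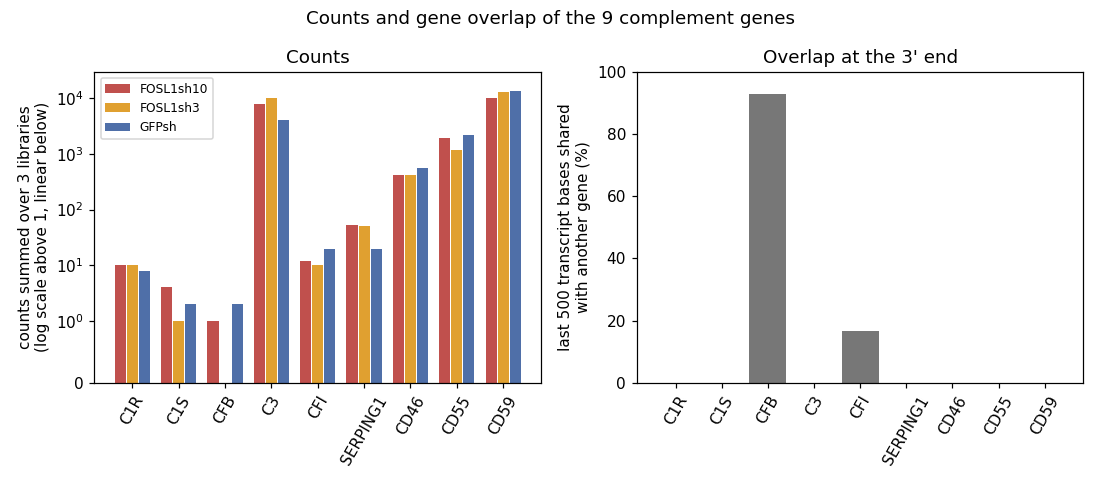
Left, counts summed over the 3 libraries of each group for the 9 complement genes (y axis logarithmic above 1, linear below); right, the share of the last 500 bases of each gene's principal transcript that another annotated gene also covers (percent). CFB had 0 to 2 summed counts and 92.8% overlap, CFI had 16.6% overlap and the other 7 genes had 0%.

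Of 50 other complement genes listed, 7 passed the expression filter, 19 had no count in any library and 32 had fewer than 10 counts over all 9 libraries. The 19 included the 3 chains of C1q and the lectin pathway's MBL2. C4A and C4B were also among them, but they are near-identical copies, and reads that map to several places were not counted. CFHR2 and VTN were among them too, and 96.8% and 65% of the last 500 bases of their principal transcripts are shared with another annotated gene. Their reads may thus be missing, as for CFB. With FOSL1sh10 none of the 7 was called in either direction by edgeR or by DESeq2, where edgeR called 5.28% of all genes. Their edgeR adjusted p-values ran from 0.216 to 0.938, and 1 had an unadjusted p under 0.05 (C1RL), a cut whose share among all genes was not taken. With FOSL1sh3, C4BPB fell and C1RL rose, where 10.9% of all genes were called in either direction. Between the hairpins C4BPB and ITGB2 were called, where 12.7% of all genes were. C4BPB, the beta chain of C4b-binding protein, averaged 81.7 ± 10.3 CPM with FOSL1sh10, 47.2 ± 8.94 CPM with FOSL1sh3 and 78.0 ± 3.27 CPM in GFPsh (SD, n = 3 each). It fell by 0.72 on the log2 scale with FOSL1sh3 (SE 0.152, adjusted p = 0.00629) and was higher by 0.79 with FOSL1sh10 than with FOSL1sh3 (adjusted p = 0.00281). C1RL, a C1R-like protease, was at 0.64 with FOSL1sh3 (adjusted p = 0.0402). That call ended without FOSL1sh10 replicate 3 or any 1 library of FOSL1sh3 or GFPsh (0.0538 to 0.152), and under 3 processing alternatives (0.0562 to 0.0764), and it is uncertain because an antisense gene and C1R share its exons in unstranded counts. ITGB2, the beta chain of the leukocyte complement receptors CR3 and CR4, was lower by 1.29 with FOSL1sh10 than with FOSL1sh3 (adjusted p = 0.00527), and an antisense gene overlaps it as well. Against GFPsh, ITGB2 was at -0.55 with FOSL1sh10 (adjusted p = 0.301) and 0.74 with FOSL1sh3 (adjusted p = 0.0826), and the value with FOSL1sh3 passed with no filter (0.0438) and without FOSL1sh3 replicate 2 (0.00831). CFD, the protease that activates factor B, was at 0.61 with FOSL1sh3 (adjusted p = 0.0639), which passed with no filter (0.0303), with DESeq2 (0.0498) and without FOSL1sh3 replicate 2 (0.00367). C1QBP, a C1q-binding protein found mainly in mitochondria, was at -0.49 with FOSL1sh3 (adjusted p = 0.128), which passed with no filter (0.0247). Also with FOSL1sh3, neither of the remaining genes passed, the inhibitor clusterin (CLU) at -0.66 (adjusted p = 0.286) and C2 at 0.54 (adjusted p = 0.591).

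Genes known to signal to complement genes, such as NF-kB and C/EBP factors and inflammatory cytokines, included 8 that were called higher with FOSL1sh10. Of 18 tested, these 8 rose and none fell (NFKB2, RELB, IRF1, CEBPB, IL6, IL1A, IL1B, TNF), where 3.13% of all genes were called higher and 2.15% lower. TNF passed the expression filter through FOSL1sh10 alone, so it had to differ, and without it 7 of 17 rose, with a median log2 fold change of 0.52 against 0.00 for all genes. The list was chosen with earlier results of these data known, so its counts and medians, here and below, are descriptive only. With FOSL1sh3, 2 of these 17 rose and none fell (NFKB1 and CEBPB), where 5.21% of all genes were called higher and 5.65% lower, with a median of 0.11 against 0.01. CEBPB averaged 318 ± 17.2 CPM with FOSL1sh10, 277 ± 29.5 CPM with FOSL1sh3 and 174 ± 19.6 CPM in GFPsh (SD, n = 3 each). Its log2 fold changes were 0.87 (adjusted p = 0.00073) and 0.67 (adjusted p = 0.00516). Among the others, RELB, which forms NF-kB dimers with the NFKB2 product, was at 1.09 with FOSL1sh10 (adjusted p = 0.000451), and IL1A, the cytokine interleukin 1 alpha, at 1.55 (adjusted p = 0.00134). The test between the hairpins put NFKB2, RELB, IRF1, IL6, IL1A, IL1B and TNF higher with FOSL1sh10 than with FOSL1sh3. Those calls ended for NFKB2 and TNF without FOSL1sh10 replicate 2 or 3, for RELB without replicate 2, for IL1B without replicate 3, and for TNF also without FOSL1sh3 replicate 1 or 3 (adjusted p 0.0541 to 0.104). TNF had 47 counts with FOSL1sh10, 7 with FOSL1sh3 and 2 in GFPsh, summed over 3 libraries. These 3 calls ended when single libraries were left out: NFKB2 (FOSL1sh10 replicate 2 or 3, GFPsh replicate 1 or 3; 0.0592 to 0.0853) and IL1B (FOSL1sh10 replicate 3; 0.0526) with FOSL1sh10, and NFKB1 (FOSL1sh3 replicate 3, GFPsh replicate 1 or 2; 0.0977 to 0.107) with FOSL1sh3.

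Markers of other complement-producing cells were at low levels, but the summed hepatocyte and leukocyte lists were higher in every hairpin library than in every GFPsh library, and the fibroblast and endothelial list in every FOSL1sh10 library. Of all single genes tested, 14.3% were likewise higher without overlap with FOSL1sh10 and 14.7% with FOSL1sh3. The 8 hepatocyte markers summed to 13.8 to 17.6 CPM with FOSL1sh10, 8.08 to 11.6 CPM with FOSL1sh3 and 6.30 to 7.31 CPM in GFPsh. Nearly all of that was SERPINA1, the acute-phase antitrypsin gene, at 14.995 ± 2.20, 9.11 ± 1.59 and 6.24 ± 0.817 CPM in the same groups (SD, n = 3). SERPINA1 rose by 1.27 on the log2 scale with FOSL1sh10 (adjusted p = 0.00141), was at 0.56 with FOSL1sh3 (adjusted p = 0.116) and was higher by 0.71 with FOSL1sh10 than with FOSL1sh3 (adjusted p = 0.0323). In that list ALB had 1 count summed over the 9 libraries and CYP3A4 and CYP2E1 had 0. The 8 leukocyte markers summed to 5.42 to 9.37, 6.47 to 7.79 and 3.94 to 5.40 CPM, mostly CD14, with CD68 and AIF1 at 0 and PTPRC at 2 counts summed over the 9. The lowest hairpin library, at 5.42 CPM, was thus barely above the highest control, at 5.40 CPM. FCER1G went the other way, with 3, 3 and 14 counts summed over the libraries of the same groups. The 12 fibroblast and endothelial markers summed to 8.13 to 9.68, 4.31 to 8.02 and 2.93 to 4.74 CPM, mostly COL1A1, with 6 of 12 at 0 (COL3A1, PDGFRA, PDGFRB, DCN, LUM and THY1). Among the endothelial markers, PECAM1 had 46, 12 and 15 counts and CDH5 38, 8 and 3, summed over the libraries of the same groups. VWF had 6, 6 and 2 and KDR 1, 0 and 2. All of these endothelial markers failed the filter. Their part in the results on C3 and the regulators was not tested.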

How the data were processed

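RNA of 9 libraries was measured by low-input sequencing (MARS-seq, per the labels' protocols), a method that tags transcripts near their 3' ends. The authors deposited raw counts, whole reads per gene and library; the submitters' processing notes name FastQC 0.11.5, STAR 2.5.3a and the build hg38, and per the file headers featureCounts 1.6.0 counted exons of GENCODE release 28 without options for strand, multi-mapping or overlapping genes. The sources used here do not give whether molecular identifiers were collapsed. Symbols were matched for 57754 of 58381 identifiers. Counts were filtered (minimum count 10, minimum total 15), scaled by TMM and tested in edgeR 4.0.16 (R 4.3.3) by the quasi-likelihood F test, in 1 fit of all 9 libraries with group as the only term. A call needed a p under 0.05 after Benjamini-Hochberg adjustment across 12814 genes. SE was taken as the absolute log2 fold change divided by the root of F, and intervals are 95%. The common biological coefficient of variation was 16.4%. Alternatives were DESeq2 1.42.0, its size factors, library totals, no filter, only the groups compared, a replicate block and leaving out each library. Principal transcripts came from GENCODE release 29. Likeness used a prior count of 2 and genes with a mean of at least 30 counts; the rule also named C1S, which failed the filter. All 9 members, every other complement gene tested and the upstream signals called against GFPsh are named by rule; between the hairpins, not every upstream signal is reported here. Members and lists were chosen with earlier results of these data known.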

Additional observations from a re-analysis of the deposited data

Results flagged for a closer look

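Of the 5 complement genes that passed the expression filter, CD55 was called in the test of FOSL1sh10 against FOSL1sh3. The difference was 0.61 on the log2 scale (SE 0.194, adjusted p = 0.047 by edgeR's quasi-likelihood test, n = 3 each), with changes against GFPsh of -0.22 with FOSL1sh10 and -0.83 with FOSL1sh3. The highest FOSL1sh3 library, replicate 2 at 67.8 CPM, lay above the lowest FOSL1sh10 library, replicate 1 at 61.0 CPM. The call was lost in 8 of 15 alternatives. In the same comparison CD59 passed in 2 of them and C3 in 1. Groups of 3 libraries were not screened for outlying samples.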

How the results depend on the processing

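The calls of C3 with both hairpins and of CD55 with FOSL1sh3 held in all 15 alternatives. C3 ranged from 0.90 to 1.03 with FOSL1sh10 (adjusted p 6.39e-07 to 0.00736) and from 1.15 to 1.44 with FOSL1sh3 (1.31e-13 to 0.000794), and CD55 from -1.13 to -0.64 (3.68e-05 to 0.048). Members called lower with FOSL1sh10 were 0 and became 1 (CD59) with only the groups compared and with DESeq2, and 0 to 1 on leaving out 1 library. Members called higher between the hairpins were 1 (CD55) and became 0 with only the groups compared, and 0 to 1 on leaving out 1 library. Members called lower between the hairpins were 0 and became 1 (CD59) with DESeq2, and 0 to 1 on leaving out 1 library. The causes were not tested. Directions that turned belonged to values that passed no test. On leaving out 1 library CD59 with FOSL1sh3 ran from -0.12 to 0.0859, and between the hairpins CD46 ran from -0.23 to 0.19 and SERPING1 from -0.19 to 0.41. Between the hairpins CD46 was 0.16 with library totals. Among the other complement genes, leaving out 1 library moved C2 from -0.42 to 0.15 with FOSL1sh10, from -0.58 to 0.90 with FOSL1sh3 and from -1.10 to 0.38 between the hairpins; C4BPB ran from -0.0400 to 0.13 and C1QBP from -0.24 to 0.12 with FOSL1sh10, and CLU from -0.19 to 0.37 between the hairpins. C1QBP with FOSL1sh10 was 0.0558 with library totals. Replicate numbers were not used as pairs in the main fit. Same-number correlations of deviations from group means ran from -0.12 to 0.18, and 2 of 9 were above 0.1. Different-number correlations ran from -0.17 to 0.16, and 1 of 18 was above 0.1. These values do not settle whether the numbers pair the libraries. With a replicate block, 695, 1456 and 1673 genes were called in the 3 comparisons, against 676, 1392 and 1633, no member's call changed, C1QBP with FOSL1sh10 was 0.00571 and CLU between the hairpins -0.0379. The call of C1RL with FOSL1sh3 was lost in 10 of 15 alternatives, among them library totals (0.0764), no filter (0.0562) and only the groups compared (0.0568). Depth limits SERPING1 (3 to 27 counts a library), and C1R, C1S and CFI failed the filter.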

Other observations

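C4b-binding protein is built of alpha chains, encoded by C4BPA, and a beta chain, encoded by C4BPB. C4BPB averaged 81.7 ± 10.3 CPM with FOSL1sh10, 47.2 ± 8.94 CPM with FOSL1sh3 and 78.0 ± 3.27 CPM in GFPsh (SD, n = 3 each). C4BPA had 1 count summed over the 9 libraries, in FOSL1sh10 replicate 1, and no other annotated gene shares the exons of its principal transcript.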
